A study of Mus musculus with 2 samples.

Results

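The genes described here are 38 markers of immune cells, chosen by symbol: 17 of macrophages, 1 of leukocytes in general, 5 of T cells, 4 of B cells, 2 of natural killer (NK) cells, 5 of mast cells, 2 of neutrophils and 2 of dendritic cells. They are 38 of the 55450 genes with a symbol that were measured. The RNA came from whole adrenal glands of male B6CASTF1/J mice, an F1 hybrid of C57BL/6J and CAST, aged 2 months. The series holds 2 libraries of 1 group, named replicate 1 and replicate 2, each made from 300 ng of total RNA with a directional kit after ribosomal RNA reduction and with ERCC spike-in RNAs. The labels number the animals differently in 1 field and alike in others, so it is not certain that the replicates are separate animals, and the spread between them may be technical. The question was which immune cell kinds can be detected in both libraries. No test was possible with 1 group, and every difference given below is between single libraries.

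The adrenal gland is supplied by a dense bed of sinusoidal capillaries, and macrophages lie along these vessels and between the steroid-producing cells of the cortex. Tissue macrophages depend on the receptor Csf1r and its ligands Csf1 and Il34, take up dying cells and debris, and make most of the complement component C1q of the body. Lymphocytes, mast cells, neutrophils and dendritic cells are found in most organs in smaller numbers, and some of them are also carried in the blood that stays in a dissected gland.

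The libraries held 36512736 and 34454892 expected counts, which are reads that the quantifier shares out among genes and which need not be whole. Levels are in TPM (a transcript's share of each library's transcripts), which divide the counts by transcript length and scale each library to the same total. The tissue label was met by its defining genes: all 9 genes of the adrenal cortex and medulla list were detected, with Star, the carrier of cholesterol into mitochondria, at 5617 ± 456 TPM (SD, n = 2). Other tissue was measured beside the gland. Ucp1, the uncoupling protein of brown fat, had 37560 and 16861 counts, and all 6 fat genes were lower in replicate 2 (median log2 ratio -1.05). All 5 red cell genes were lower in replicate 2 as well (median -0.76), and for both lists every gene was below 0 under each of the other scalings. In bulk tissue, fewer cells of a kind and less RNA per cell cannot be told apart, here and in every result that follows. Whether immune markers came from the gland, its fat or its blood was not tested.

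2 coding ends of Ighm, the constant part of the immunoglobulin mu heavy chain, are shown because the RNA for secreted IgM and the RNA for the B cell receptor differ there, and both forms were measured. Ighm lies on chromosome 12, from 113418558 to 113422730 on the minus strand (mm10, GENCODE M21). Both forms share 1305 coding bases. The last 30 shared bases are in lower case and the bases that only 1 form has are in capitals. The secreted form (Ighm-201) ends with 59 coding bases of its own, at 113420870 to 113420928. The membrane form (Ighm-202) ends with 122 coding bases of its own, in 2 blocks between 113418829 and 113419068, which encode the stretch that anchors the receptor in the membrane.
Ighm secreted form: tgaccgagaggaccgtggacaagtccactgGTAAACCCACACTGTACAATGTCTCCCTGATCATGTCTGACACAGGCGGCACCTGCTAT
Ighm membrane form: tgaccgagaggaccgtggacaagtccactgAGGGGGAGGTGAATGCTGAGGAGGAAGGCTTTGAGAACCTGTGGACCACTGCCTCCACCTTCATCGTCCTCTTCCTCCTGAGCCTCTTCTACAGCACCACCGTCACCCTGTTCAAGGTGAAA

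Bases before the start sites of C1qb, C1qc, Lyz2 and S100a8 are shown, which are among the genes with macrophage or neutrophil signal. The choice was made among windows that hold the motif AGGAAGT, a form of the purine-rich sequence that PU.1, the Spi1 product, binds. The window of S100a9, the other neutrophil member, does not hold this motif. The windows are from RefSeq on GRCm38.p6, read 5′ to 3′ on the strand of the gene, and are shown up to the first base of an exon in GENCODE M21. Capitals mark the motif or its reverse complement. The positions are chr4:136886201-136886450 on the minus strand for C1qb, chr4:136893066-136893164 on the minus strand for C1qc, chr10:117282322-117282522 on the minus strand for Lyz2 and chr3:90668821-90668977 on the plus strand for S100a8.
C1qb promoter: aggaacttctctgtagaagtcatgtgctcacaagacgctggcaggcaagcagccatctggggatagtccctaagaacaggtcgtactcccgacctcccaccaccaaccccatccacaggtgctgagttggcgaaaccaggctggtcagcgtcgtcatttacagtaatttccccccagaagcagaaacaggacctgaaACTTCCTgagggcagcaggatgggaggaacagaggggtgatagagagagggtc
C1qc promoter: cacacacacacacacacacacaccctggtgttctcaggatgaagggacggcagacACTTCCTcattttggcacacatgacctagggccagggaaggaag
Lyz2 promoter: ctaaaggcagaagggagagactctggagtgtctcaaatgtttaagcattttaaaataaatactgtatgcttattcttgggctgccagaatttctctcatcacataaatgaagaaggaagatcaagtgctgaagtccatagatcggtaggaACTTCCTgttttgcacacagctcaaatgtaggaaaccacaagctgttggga
S100a8 promoter: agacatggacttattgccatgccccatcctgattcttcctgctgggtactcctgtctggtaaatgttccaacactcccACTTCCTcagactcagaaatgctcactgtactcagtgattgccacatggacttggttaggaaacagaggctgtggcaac

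RefSeq windows were found for 28 of the 38 members, 32 windows in all. AGGAAGT on either strand was in 11 of these 32 windows, from 10 genes (C1qb, C1qc, Cd3e, Cd79a, Fcgr1, Folr2, Lyz2, Mrc1, Ptprc and S100a8), and in 7.69% of the 32851 windows of 250 bases over all genes. The longer GAGGAAGT, which contains it, was in 2 of 32 member windows (C1qc and S100a8) and in 2.44% of all windows. The shorter GAGGAA, which overlaps both, was in 14 of 32 member windows and in 23.3% of all windows. The TATA box letters TATAAA were in 4 of 32 member windows (Cpa3, Mcpt4, Ptprc and S100a8) and in 12.4% of all. Relative to the start site, the most upstream match was at -32 in Mcpt4 and -30 in S100a8. It was at -187 in Ptprc and -242 in Cpa3. A match is a description of the letters and no evidence of binding.

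Macrophages, B cells, mast cells and neutrophils met the rule for detection in both libraries, and T cells and NK cells did not. The neutrophil call rested on S100a8 and S100a9 alone. Of 10 further neutrophil genes 2 were detectable, and Ly6g, Mpo and Ngp had 0 counts in both libraries. A member was called detectable at 10 or more expected counts in both libraries. A cell kind was called detectable when at least 2 of its members that are not shared with other kinds were detectable. There were 10 such members for macrophages, 4 each for B cells and mast cells, and 2 each for T cells, NK cells and neutrophils. Kinds with 2 such members had to pass with both, so the calls are not on equal terms. By this rule 29 of 38 members were detectable, where 30.2% of all 55450 genes were. In both libraries 17 members stood at 1 TPM or higher, against 23.4% of all genes. The 38 members summed to 179.86 TPM in replicate 1 and 190.85 TPM in replicate 2, 185 ± 7.77 TPM (SD, n = 2), or 0.0185% of all TPM. Of that sum, macrophage genes held 86.3% in replicate 1 and 86.5% in replicate 2. B cell genes held 8.13% and 7.73%, almost all of it Ighm, mast cell genes 1.91% and 1.79%, and neutrophil genes 1.14% and 1.34%. Nuclear protein-coding and immunoglobulin genes held 29.7% and 30.4% of all TPM, genes annotated as miscellaneous RNA 38.2% and 41.0%, and mitochondrial genes 17.1% and 13.8%. With only the first of these sets counted in the total, the sum of the 38 members was 616 TPM.

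**Figure D1:**
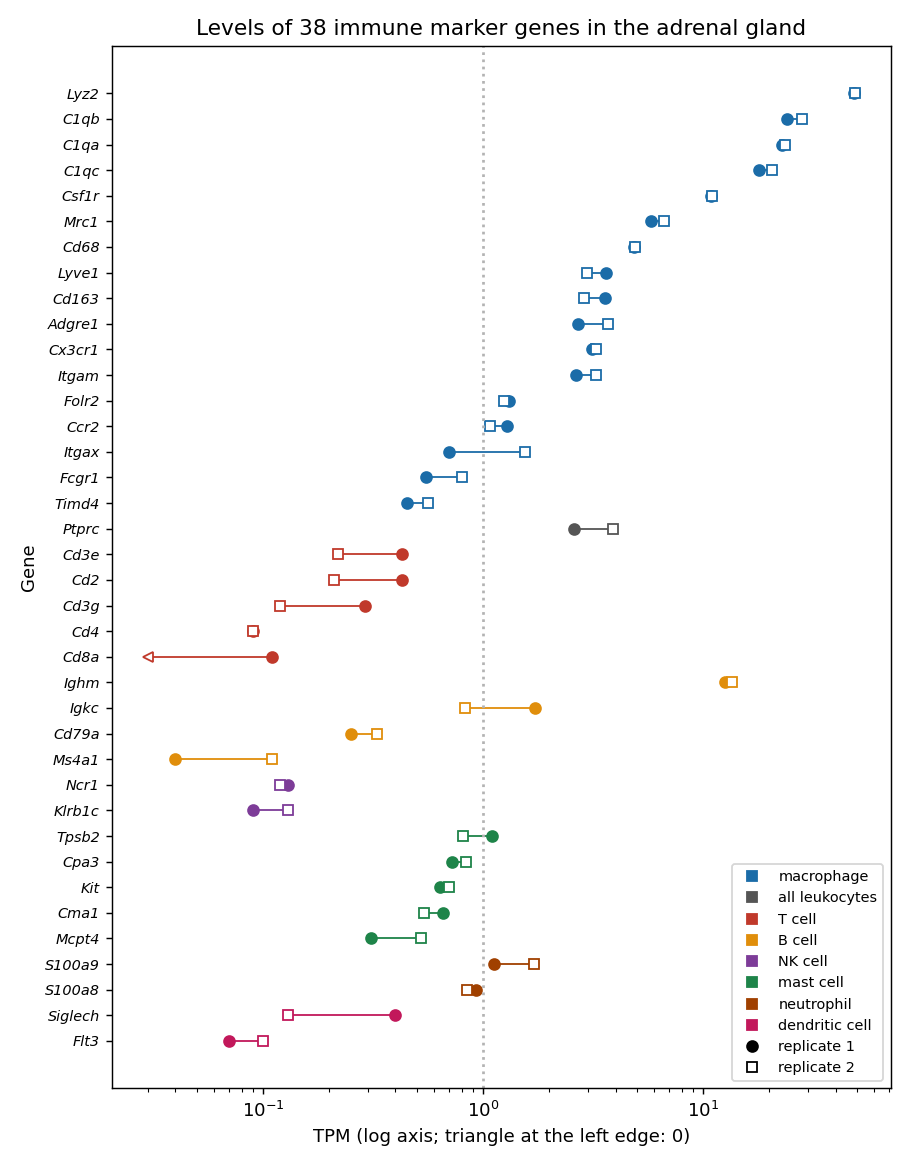
Level of each of the 38 marker genes in TPM (log axis), with filled circles for replicate 1, open squares for replicate 2 and colours for the cell kind. Lyz2 and the C1q genes are highest near 49 to 18 TPM, Ighm stands apart from the other B cell genes, and Cd8a is at 0 in replicate 2 (open triangle at the left edge).

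All 17 macrophage members were detectable, from Timd4 with 36 and 42 counts to Lyz2 with 2304 and 2160 counts. 14 of them were at 1 TPM or more in both libraries, and the exceptions were Itgax, Fcgr1 and Timd4. 10 of the 17 are not shared with other kinds, and all 10 were detectable.

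Among the secreted products, Lyz2, the lysozyme of myeloid cells, had the highest level of any member, at 48.73 and 49.06 TPM. The 3 chains of C1q, which assemble in equal numbers into the recognition part of the classical complement pathway, followed it. C1qb was at 23.97 and 28.11 TPM, C1qa at 22.89 and 23.55 TPM, and C1qc at 17.99 and 20.62 TPM. In each library the 3 chains lay within a narrow band, with C1qb the highest and C1qc the lowest. The order of C1qa and C1qc depended on the quantifier, as a second, read-based one gave 43.2 and 43.6 TPM in replicate 2. Together the 3 chains summed to 64.85 and 72.28 TPM, 36.1% and 37.9% of the TPM of all 38 genes. They lie side by side on chromosome 4, with 3617 bases between C1qb and C1qc and 2852 bases between C1qc and C1qa.

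Reads of Lyz2 can be shared with Lyz1, its close copy on the same chromosome, which was looked up after the values were seen. Lyz1 had 291 and 187 counts and 6.43 and 4.43 TPM, well under Lyz2 in both libraries. Lyz2 is also made by neutrophils and other myeloid cells, so it counts as a shared marker.

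Csf1r, the receptor on which tissue macrophages depend, was at 10.91 and 10.96 TPM from 1471 and 1434 counts. It was the highest surface receptor among the members, and its libraries agree within counting error. Adgre1, which encodes F4/80, was at 2.69 and 3.68 TPM, and Cd68, a lysosomal glycoprotein, at 4.87 and 4.89 TPM. Cx3cr1, the fractalkine receptor of monocytes and resident macrophages, was at 3.12 and 3.25 TPM. Ccr2, the chemokine receptor that marks monocytes leaving the blood, was lower at 1.28 and 1.08 TPM, and its range did not overlap that of Cx3cr1.

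The receptors for uptake followed. Mrc1, the mannose receptor, was at 5.82 and 6.67 TPM, and Cd163, the receptor for haemoglobin bound to haptoglobin, at 3.58 and 2.88 TPM. Fcgr1, the high-affinity IgG receptor, was at 0.55 and 0.80 TPM from 53 and 72 counts. Mrc1 and Cd163 were above Fcgr1 in both libraries.

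3 members mark subsets of resident macrophages in many organs. Lyve1, a hyaluronan receptor, was at 3.63 and 2.96 TPM, Folr2, a folate receptor, at 1.31 and 1.25 TPM, and Timd4, a receptor for phosphatidylserine, at 0.45 and 0.56 TPM. Their order, with Lyve1 above Folr2 above Timd4, was the same in both libraries. Lyve1 is also a marker of lymphatic and sinusoidal endothelium, whose list had 5 of 6 genes detectable, among them Stab1 (23.0 ± 4.93 TPM), Prox1 (10.1 ± 0.290 TPM), Flt4 (6.89 ± 1.17 TPM) and Ccl21a (2.80 ± 1.02 TPM; each SD, n = 2). How much of the Lyve1 RNA came from macrophages was not tested.

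The integrin chains Itgam (CD11b) and Itgax (CD11c), which pair with the same beta chain, are neighbours on chromosome 7 with 11056 bases between them. Itgam was at 2.64 and 3.25 TPM, and Itgax at 0.70 and 1.55 TPM. Both were higher in replicate 2.

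Further macrophage genes were detectable too, 18 of the 20 in that list, and Vsig4 and Marco, scavenger and complement receptors of other resident macrophages, had 1 to 4 counts and were singled out after their values were seen. Among its highest genes were Ctss, a lysosomal protease (19.4 ± 4.02 TPM), Tyrobp, an adaptor of activating receptors (13.4 ± 1.80 TPM), and Laptm5, a lysosomal membrane protein (11.0 ± 0.544 TPM; each SD, n = 2). Spi1, the macrophage transcription factor named above, had 132 and 123 counts and was picked out after its values were seen. In the monocyte list 6 of 7 genes were detectable. Ly6c2, which marks classical monocytes, had 27.9 and 34.7 counts, and Plac8 had 79 and 82. F13a1, the A chain of coagulation factor XIII, which monocytes and some resident macrophages make, had 870 and 594 counts, a log2 ratio of replicate 2 to replicate 1 of -0.54 (95% counting interval -0.70 to -0.39). Nr4a1, which non-classical monocytes need and which many stimulated cells make, had 14443 and 26820 counts, a ratio of 0.90 (0.87 to 0.93). At 163.56 and 315.58 TPM it stood far above every other gene of the list. Which cells made it was not tested, so its ratio is not a measure of monocytes. F13a1 and Nr4a1 thus lay on opposite sides of 0, and the intervals of the other 4 monocyte genes that averaged at least 20 counts held 0.

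Ligands of the member receptors were all detectable, 7 of 7. Csf1, the main growth factor for Csf1r, was at 7.28 and 10.29 TPM, and Il34, its second ligand, at 12.40 and 11.61 TPM. Il34 was above Csf1 in both libraries, but the read-based values in replicate 2 were 17.5 TPM for Il34 and 17.8 TPM for Csf1. Cx3cl1, the ligand of Cx3cr1, was at 13.96 and 14.72 TPM. The Ccr2 ligands were low, Ccl2 at 0.58 and 0.60 TPM and Ccl7 at 0.84 and 1.14 TPM. Kitl, the ligand of Kit, was at 7.82 and 7.79 TPM, and Flt3l, the ligand of Flt3, at 5.94 and 7.36 TPM.

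The tyrosine phosphatase Ptprc (CD45), carried by all leukocytes, was at 2.58 and 3.89 TPM from 404 and 459 counts. Its level lay among those of Lyve1, Cd163 and Adgre1, with overlapping ranges.

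T cells were not detectable by the rule, which needed 2 of 2 unshared markers. Cd3e and Cd3g, chains of the T cell receptor complex and neighbours on chromosome 9, had 12 and 5 counts and 11 and 4 counts. The adhesion receptor Cd2 had 17 and 8 counts. All 3 were above 10 counts in replicate 1 and under 10 in replicate 2. Cd4 had 11 and 10 counts, but macrophages and dendritic cells can also carry it. Cd8a, the co-receptor of cytotoxic T cells, had 13 counts in replicate 1 and 0 in replicate 2, which allows up to 3 counts. The read-based table, which assigns reads to transcripts by its own method, gave Cd8a 26.3 and 9.09 counts, so the 0 is particular to the alignment-based table. The 5 genes summed to 1.35 and 0.64 TPM. Of 13 further T cell genes 4 were detectable, among them Lck, the kinase of the receptor (50 and 59 counts), Cd28, the costimulatory receptor (40 and 46), and Trbc1, a receptor constant chain (12.02 and 12 counts). Trbc2, the other beta constant chain, had 11.0 and 4 counts. The counts in replicate 1 alone met the rule, with 2 of 2 unshared markers at 10 or more.

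NK cells were not detectable either. Ncr1, the activating receptor NKp46, had 7 and 6 counts, and Klrb1c, the receptor NK1.1, had 8.94 and 12 counts. Neither passed 10 counts in both libraries, and none of the 8 further NK genes did. The highest of those were Nkg7 (11 and 8 counts), a granule protein, and Klrk1 (8 and 13 counts), the receptor NKG2D. Klrb1c has close copies, and Klrb1b, looked up after the values were seen, had 9.82 and 7 counts.

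**Figure D2:**
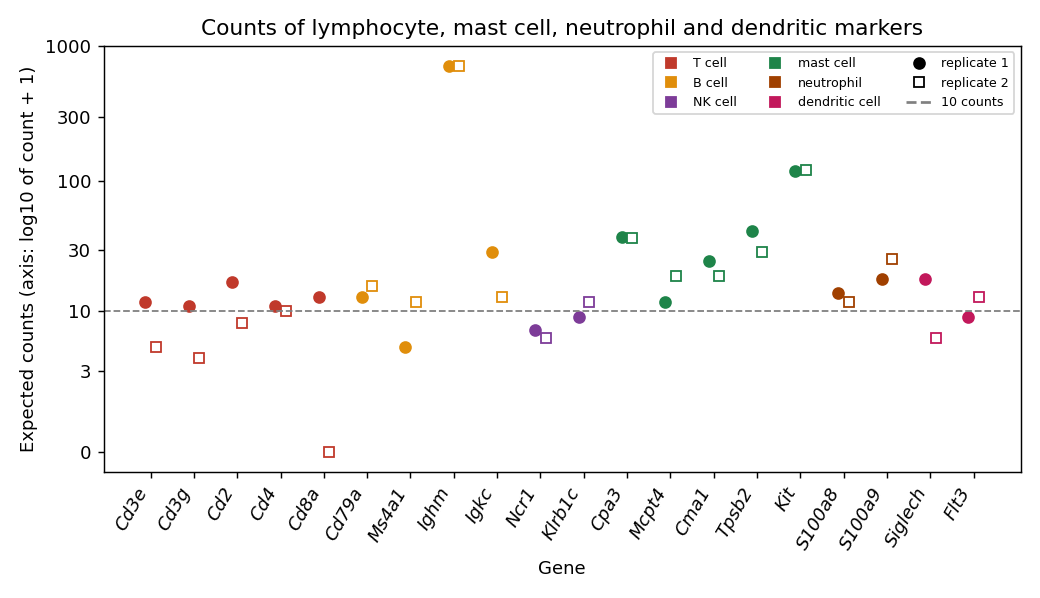
Expected counts of the 20 members outside the macrophage and general leukocyte groups, on an axis of log10 of the count plus 1, with filled circles for replicate 1, open squares for replicate 2 and a dashed line at 10 counts. Ighm and Kit lie above 100 counts in both libraries, most T cell markers cross the line between the libraries, and Ncr1 is under it in both.

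B cells were detectable through 3 of 4 members: Ighm, Igkc and Cd79a. Ighm had 716 and 715 counts and was at 12.62 and 13.48 TPM, the fifth highest level of the 38. The signalling chain of the B cell receptor, Cd79a, had 13 and 16 counts. Ms4a1 (CD20), a membrane protein of mature B cells, had 5 and 12 counts and missed the rule through replicate 1. Igkc, the constant part of the kappa light chain, had 29 and 13 counts. Ighm therefore stood far above the other B cell genes in both libraries, at 12.62 against 1.72 TPM for Igkc in replicate 1 and 13.48 against 0.83 TPM in replicate 2. Cd79a and Igkc each had under 20 counts in at least 1 library, so the call was lost at a minimum of 20 counts.

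Other immunoglobulin genes had few counts. With pseudogenes included, the 185 heavy chain V genes summed to 9 and 5 counts, the 160 kappa V genes to 12 and 6, and the 3 lambda V genes to 0 and 1. The 4 heavy chain J genes and the 5 kappa J genes had 0 counts in both libraries. Thus the V genes, which a complete heavy chain RNA contains beside the mu constant part, had 9 and 5 counts where Ighm had 716 and 715. Whether reads from rearranged V genes or from the CAST allele were lost in assignment was not tested. Nor was it tested whether J genes can take counts here, so their 0 sets no limit on their RNA. Constant genes of the other classes, looked up after the values were seen, were low too: Igha had 13 and 4 counts, Ighg2c 2 and 2, Ighg3 0 and 1, and Ighg1 and Ighg2b 0 in both libraries. Ighd, for the delta chain of naive B cells, had 19 and 21 counts. Of the 10 further B and plasma cell genes 4 were detectable, including Mzb1 (12 and 14 counts), a chaperone of immunoglobulin assembly, and Cd79b (10 and 18), the partner of Cd79a. The third highest of that list, Cd22, an inhibitory receptor, had 8 and 17 counts, and Iglc2, a lambda constant gene, had 8 and 5.

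Both forms of Ighm whose ends are shown above were measured. The secreted form took 461 and 440 expected counts and the membrane form 255 and 275. As a share of the TPM of Ighm, the secreted form held 67.5% in replicate 1 and 64.8% in replicate 2, 66.1% ± 1.94 (SD, n = 2). The read-based tables gave a mean of 64.8%. The secreted form was the larger in both libraries by both quantifiers. Its own bases lie between the shared part and the membrane blocks, so unspliced RNA would hold them as well. How much of the secreted share came from unspliced RNA was not tested, and the use of 2 quantifiers cannot show it.

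**Figure D3:**
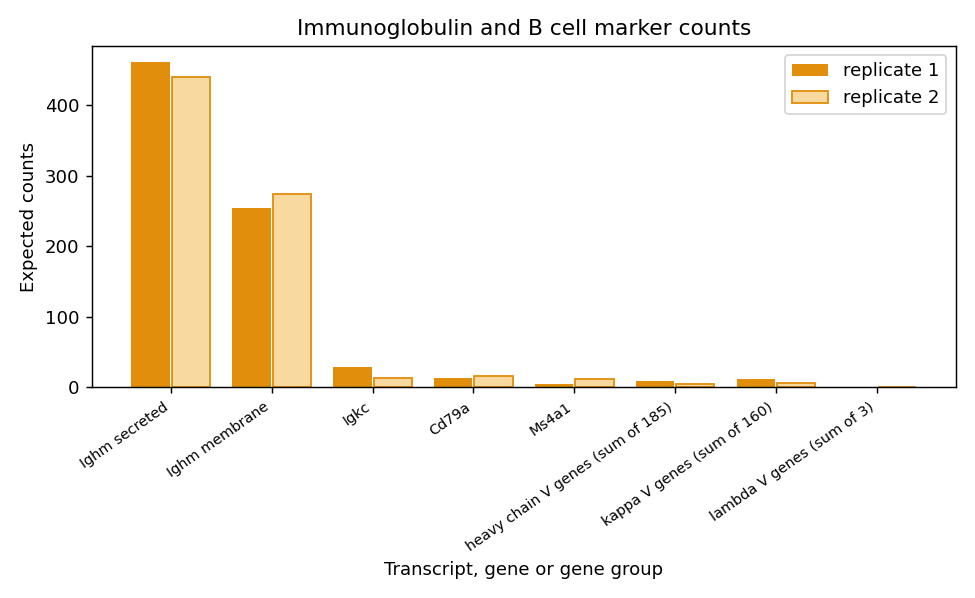
Expected counts of the secreted and membrane forms of Ighm, of Igkc, Cd79a and Ms4a1, and of the summed V genes of each immunoglobulin locus, as bars from 0 for replicate 1 (dark) and replicate 2 (light). The secreted form has 461 and 440 counts and the membrane form 255 and 275, while every other bar is at 29 counts or lower.

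Mast cells were detectable with all 5 members, 4 of them unshared. Tpsb2, a tryptase, had 42 and 29 counts, Cpa3, the granule carboxypeptidase, 38 and 37, Cma1, a chymase, 25 and 19, and Mcpt4, the chymase of connective tissue mast cells, 12 and 19. The 4 granule proteases therefore lay between 0.31 and 1.10 TPM in both libraries. Kit, the receptor for stem cell factor, had 118 and 120 counts and was at 0.64 and 0.70 TPM. Kit is made by other cells as well and was left out of the call. Cma1 and Mcpt4 are neighbours on chromosome 14, with 114954 bases between them. Of 7 further mast cell genes 3 were detectable. These were Hdc, the enzyme that makes histamine (45 and 51 counts), Tpsab1, a second tryptase (18 and 21), and Gata2, a transcription factor that endothelium also makes (1283 and 856). The others of that list were near 0. Mrgprb1, a receptor gene, had 4 and 4 counts, Ms4a2 4 and 3, Mrgprb2 2 and 1, and Fcer1a 1 and 1. Ms4a2, Mrgprb2 and Fcer1a were singled out after their values were seen.

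Neutrophils met the rule with low counts. S100a8 and S100a9, the chains of calprotectin, which fills the neutrophil cytosol, had 14 and 12 counts and 18 and 26 counts. The level was 0.93 and 0.85 TPM for S100a8 and 1.12 and 1.71 TPM for S100a9. They are neighbours on chromosome 3, with 22597 bases between them. Of 10 further neutrophil genes 2 were detectable: Csf3r, the receptor for the granulocyte growth factor (47.99 and 59.96 counts), and Ltf, lactoferrin (22 and 21). Elane, neutrophil elastase, had 8 and 5 counts and Retnlg 4 and 1. Ly6g, the antigen that defines mouse neutrophils, and the granule genes Mpo and Ngp were at 0 in both libraries, which allows up to 3 counts each. These 3 genes were singled out after their values were seen. Read-based counts of S100a8 were 10 and 8, and the neutrophil call was lost.

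Dendritic cells have only 1 unshared member, so no call was made. Siglech, a marker of plasmacytoid dendritic cells, had 18 and 6 counts, and Flt3, a receptor tyrosine kinase of progenitors and dendritic cells, had 9 and 13. Neither was above 10 counts in both libraries. Of 8 further dendritic genes 5 were detectable. Zbtb46, a transcription factor of classical dendritic cells that endothelium makes as well, had 766 and 753 counts, Irf8, a factor of dendritic cells and other myeloid and B cells, 348 and 345, Batf3, which one subset of classical dendritic cells needs, 19 and 29, and Clec9a, a receptor of that subset, 12 and 25.9. Of 6 eosinophil genes only Ear2, with 35.4 and 36.5 counts, was detectable. Its close copy Ear1 had 4.51 and 4.47 counts, Siglecf 0 and 2, and Ccr3 2 and 0.

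Ordered by mean TPM, the top 8 members were Lyz2, C1qb, C1qa, C1qc, Ighm, Csf1r, Mrc1 and Cd68, and each neighbouring pair in this run, down to Cd68 over Lyve1, had ranges that did not overlap. Below them the order was mostly not resolved. Over all 37 neighbouring pairs, 27 had overlapping ranges and 10 did not, the other two being Itgam over S100a9 and S100a8 over Cpa3. The lowest members were Cd4, Flt3, Ms4a1 and Cd8a, each under 0.12 TPM in both libraries. With 2 libraries these ranges are only the pair of values. They also depend on the quantifier. By the read-based table C1qb (41.3 and 52.9 TPM) overlapped C1qa (40.0 and 43.2 TPM), and C1qa overlapped C1qc (35.8 and 43.6 TPM). Ighm (20.1 and 22.6 TPM) overlapped Csf1r (19.2 and 21.2 TPM) there as well.

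Between the libraries the markers differed little. The log2 ratio of replicate 2 to replicate 1 was taken from counts scaled by edgeR's TMM, with 95% counting intervals that cover counting error only, for the 25 members that averaged at least 20 counts. Their median was -0.03, beside -0.01 over the 15654 genes that did so. For 18 of the 25 members the interval held 0. The interval lay above 0 for 3 members, against 16.4% of all genes, and below 0 for 4, against 17.8%. Of the 17 members that averaged at least 100 counts none was over 2-fold apart, where 0.451% of 12425 genes were. The median size of the ratio in these 17 was 0.10, against 0.11 over all such genes.

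Itgam and Itgax were higher in replicate 2. Itgam had 333 and 433 counts, a log2 ratio of 0.39 (interval 0.18 to 0.60). Itgax had 108 and 151 counts, a ratio of 0.49 (0.12 to 0.86). The TPM of Itgax differed more than its counts because 4.33 counts of replicate 2 were placed on Itgax-202, an intron-retaining transcript of 352 bases, which added 0.47 TPM. The third member above 0 was C1qb, with 921 and 1006 counts and a ratio of 0.13 (0.0043 to 0.27), which no longer left out 0 under DESeq2 size factors.

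The 4 members below 0 were Cd163, Ccr2, Lyz2 and Igkc. Cd163 had 559 and 413 counts, a ratio of -0.43 (-0.62 to -0.24), and Ccr2 183 and 140 counts, a ratio of -0.38 (-0.71 to -0.05). Igkc had 29 and 13 counts, a ratio of -1.12 (-2.22 to -0.16). Lyz2 was close to 0, with a ratio of -0.09 (-0.17 to -0.00043), and it turned to 0.01 as a ratio of TPM. Ccr2 and Lyz2 held 0 when counts were scaled by their total. Cd163 and Itgam, both macrophage genes, thus lay on opposite sides of 0.

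**Figure D4:**
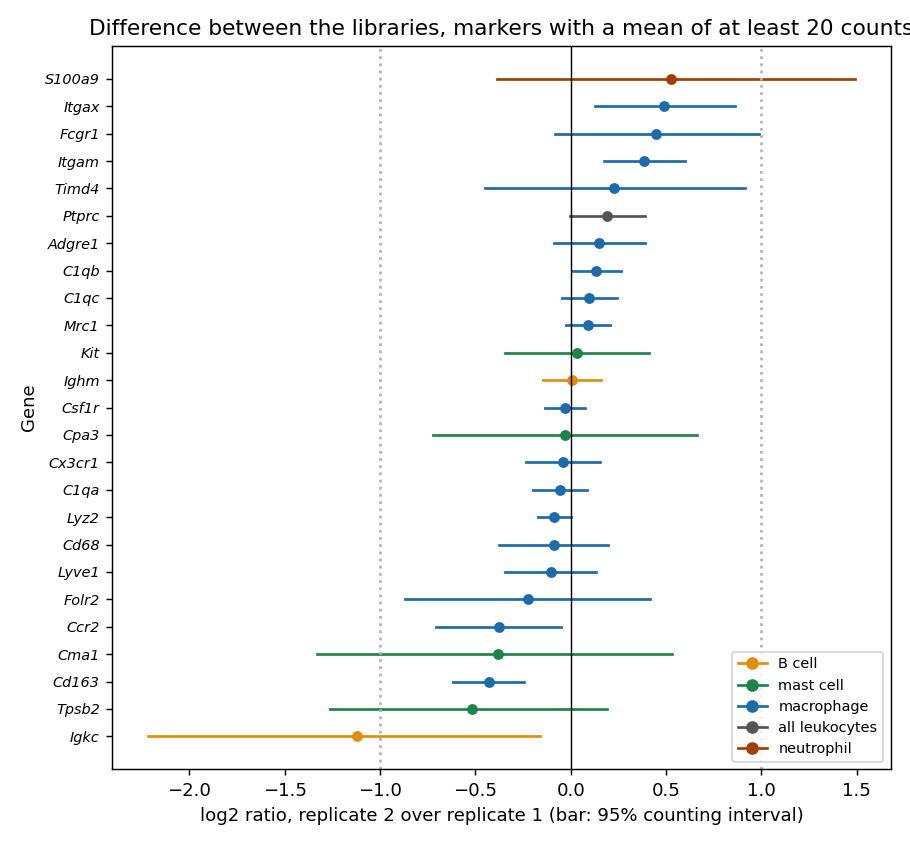
log2 ratio of replicate 2 over replicate 1 for the 25 members with a mean of at least 20 counts, as points with 95% counting intervals, coloured by cell kind, with dotted lines at 2-fold. Most intervals cross 0, Itgam and Itgax lie above it at 0.39 and 0.49, and Cd163 and Igkc lie below it at -0.43 and -1.12.

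Genes of antigen presentation were higher in replicate 2 as a list, while the macrophage members were not. All 7 MHC class II genes had intervals above 0, against 16.4% of all genes that averaged at least 20 counts. Their median was 0.39. All 7 were above 0 under each of the other scalings and in the read-based counts, where medians ran from 0.31 to 0.47. These settings rescale the same 2 libraries, and the list was chosen with earlier results of these data known. Cd74, the invariant chain, had 5561 and 6506 counts and was at 120.43 and 151.01 TPM. H2-Eb1, H2-Aa and H2-Ab1, chains of the class II molecules, had 1647 and 2149, 1601 and 2021, and 1158 and 1695 counts. These genes are made by macrophages, dendritic cells and B cells. The macrophage members had a median of -0.03, and the further macrophage genes one of 0.03, with 6 above 0, 4 below 0 and 8 holding 0. The difference between the lists was not tested.

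The list of large peritoneal macrophage genes was chosen knowing that Alox15 and Prg4 differ between these libraries, so its direction is no independent evidence. Of the 6 genes that averaged at least 20 counts, 5 had intervals above 0, against 16.4% of all such genes, and the median was 0.73. Fn1, fibronectin, had 2918 and 4863 counts, and Gata6, a factor of peritoneal macrophages that the adrenal cortex also makes, 2503 and 3181. Prg4, lubricin, had 85 and 230 counts and Alox15, a lipoxygenase, 72 and 290, both over 2-fold apart. Icam2, an adhesion molecule that endothelium also carries, had 213 and 203 counts and held 0. Cd5l, a macrophage secreted protein, had 12 and 56 counts. Alox15 and Cd5l are outside the naming rule and were chosen after their values were seen. The part of peritoneal cells in these differences was not tested. Timd4, which is also carried by peritoneal macrophages, had 36 and 42 counts and an interval that held 0.

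**Figure D5:**
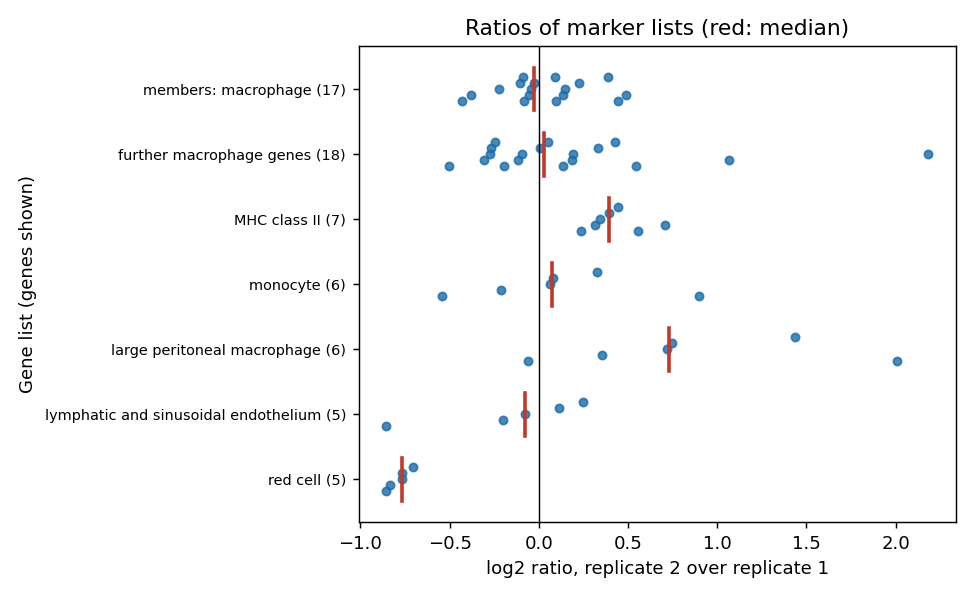
log2 ratio of replicate 2 over replicate 1 for the genes of each list with a mean of at least 20 counts, 1 point a gene, with a red bar at the median and the number of genes shown in parentheses. The macrophage members centre on -0.03, the 7 MHC class II genes are all above 0 with a median of 0.39, and the 5 red cell genes are all below 0 with a median of -0.76.

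Read-based counts divided by the alignment-based ones differed with transcript length. In the 3 detectable members under 600 bases (Igkc, S100a8 and S100a9) the quotient ran from 0.643 to 0.692. It ran from 0.828 to 1.09, with a median of 0.997, in the 11 detectable members of 600 to 1500 bases, and from 0.920 to 1.57, with a median of 1.11, in the 15 longer ones. The highest was that of Cd4, which had 11 and 10 counts by alignment and 15 and 18 by the read-based table. The 3 shortest members were thus all lower by the read-based table, and Cd4 was the member with the largest excess among those detectable.

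Of the 31 members with more than 1 annotated transcript, the transcript with the highest TPM was the same in both libraries for 28 by alignment and for 22 by the read-based table, and in all 4 tables for 19. The 28 include Cd8a, which had 0 TPM in replicate 2 by alignment and so no leading transcript there. Csf1r-201 led in all 4 tables, with 64.5% and 76.9% of the Csf1r TPM by alignment. Ptprc, whose spliced forms differ between leukocytes, was less stable. Ptprc-203 took 62.0% and 36.4% of its TPM by alignment. In the read-based table Ptprc-203 took 63.9% and 3.80%, and Ptprc-204, the form that led in replicate 2, took 0.452% and 38.5%. For S100a9 all counts were on S100a9-201 in replicate 1 and on S100a9-202 in replicate 2 by alignment, while the read-based table placed all on S100a9-201 in both. The forms of Ptprc and S100a9 were therefore not resolved.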

How the data were processed

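Total RNA of adrenal glands was measured in 2 libraries of 1 group, with 36512736 and 34454892 expected counts. The authors deposited alignment-based gene and transcript tables with expected counts, TPM and FPKM, per the file headers, and read-based transcript tables with estimated counts (35315387 and 33397838) and TPM, per the file headers. Build mm10 and GENCODE M21 are given per the labels and file notes. Names of the alignment and quantification tools are not given in the sources used here. The kit keeps strand, per the labels' protocols, but whether counting used it is not given.

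Members were matched by symbol and joined by gene identifier, and read-based values were summed per gene. Rows that name no gene (spike-ins, transfer RNAs) held 0.919% and 0.903% of the counts and were left out. Gene types are those of GENCODE M21. Counts were rounded for edgeR 4.0.16 TMM factors, over all genes. Ratios used counts plus 0.5. Intervals are exact Clopper-Pearson 95% intervals of the share of counts in replicate 2. They cover only the error of counting, because each side of a ratio is 1 library. They also take each read as independent. Without molecular identifiers several reads can come from 1 molecule, so the intervals may be too narrow even for that error. The ratio code was tested on simulated data. Alternatives were DESeq2 1.42.0 size factors, total count, TPM ratios, FPKM, read-based values, other minimums and single libraries. Except for the J genes, a count of 0 allows up to 3 counts.

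The members and the 16 context lists (136 genes) were chosen with earlier results of these data known. Every member may be named. From each context list the 4 genes of highest mean TPM are named, and all ligands; 1 gene that this rule would name is not reported here. Other genes were chosen after their values were seen. 13 members are marked as shared with other cell kinds. Python 3.11.15 and R 4.3.3 were used.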

Additional observations from a re-analysis of the deposited data

How the results depend on the processing

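Macrophages were detectable under all 7 settings of the minimum, quantifier or library, mast cells under 6, B cells under 5 and neutrophils under 4. T cells were detectable without replicate 2 alone, and NK cells at 5 counts alone. The 4 detectable cell kinds became 2 at 20 counts and 1 at a minimum of 1 TPM, where 17 members passed. The summed level of 185 TPM was 338 TPM by the read-based table, 616 TPM when rescaled to nuclear protein-coding and immunoglobulin genes, and 196 as FPKM. Leaving out each library in turn gave 32 and 34 detectable members, 4 and 5 cell kinds, 190.85 and 179.86 TPM, and a secreted share of Ighm of 64.8% and 67.5%. With counts scaled by their total, 6 members were higher and 2 lower in replicate 2, in place of 3 and 4. All genes moved the same way. Of 15654 genes, 4442 were higher and 1642 lower by total count, in place of 2570 and 2789. Over 2-fold apart were 0 members, but 1 by the TPM ratio (Itgax), 1 at a mean of 20 counts (Igkc) and 7 at a mean of 5 counts. Of 75 recomputed member ratios with an interval, 69 kept their side of the interval rule, 3 gained a call (C1qc, Mrc1 and Ptprc, by total count) and 3 lost it (Ccr2 and Lyz2 by total count, C1qb by DESeq2 size factors). Of 100 ratios, the 25 of TPM included, 14 changed sign. Of these 13 had an interval that held 0, and 1 was Lyz2, which turned to 0.0097 by the TPM ratio. The median ratio of all genes was 0.07 by total count and 0.09 by TPM. The scalings of the context lists were added after seeing the data. A ratio has no value with 1 library. No paired analysis was possible because there is 1 group. Most T, NK, neutrophil and dendritic markers averaged under 20 counts, too few for a ratio here. Depth was not varied.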
